A study of Mus musculus with 10 samples.

Results

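The genes of cholesterol and fatty acid synthesis were followed through the differentiation of R1 mouse ES cells into embryoid bodies (EBs), with Smyd5 knocked down or not. The members were 32 named genes of 22878 in the files, 21 of the sterol pathway and 11 of fatty acid and lipid synthesis, chosen by name as known enzymes and regulators of these pathways. One sterol member, Hmgcs1, the synthase that feeds the mevalonate pathway, was listed at 0 reads in all 10 libraries, so 31 members had values. How its reads were counted was not tested, and nothing on its transcription is read from these zeros. Polyadenylated RNA was sequenced from cells carrying a short hairpin RNA against Smyd5 (shSmyd5) or against luciferase (shLuc, the control), as ES cells and as EBs at 24 h, day 6, day 10 and day 14. Both kinds of cell came from the R1 line, had been infected with lentivirus and were selected with puromycin. The ES cells were kept with LIF and a GSK3 inhibitor on gelatin to remove feeder cells, and EBs formed in dishes of low attachment without LIF. There was 1 library per condition, the labels do not say which hairpin sequence against Smyd5 was used, and EBs hold several cell types.

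Cells make cholesterol from acetyl-CoA by way of mevalonate, farnesyl diphosphate and squalene, and they make fatty acids from the same acetyl-CoA through acetyl-CoA carboxylase and fatty acid synthase. Both branches are switched on by the SREBP transcription factors, which leave the endoplasmic reticulum with their escort SCAP when membrane sterol is low, while the INSIG proteins hold SCAP back when sterol is high. In the early mouse embryo the visceral endoderm, a layer that EBs also form, takes up nutrients and makes lipoproteins.

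Reads in genes ranged from 3895537 in shLuc ES cells to 43377815 in shLuc EBs of day 6. Levels are given as RPKM, reads scaled to the length of the transcript and the size of the library. Smyd5 itself had 4.51 RPKM in shSmyd5 and 29.7 RPKM in shLuc ES cells, and in EBs 0.492 to 9.14 RPKM with shSmyd5 and 10.7 to 25.0 RPKM with shLuc. The 5 ES cell markers examined were at an RPKM of at least 3 in both ES cell libraries, and their summed RPKM there was 866 with shSmyd5 and 1737 with shLuc. Of 6 fibroblast markers, 1 reached an RPKM of 3 in each ES cell library.

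The promoters of most sterol members carried the boxes of the factors that work beside SREBP at sterol genes. The RefSeq promoter table (GRCm38.p6, the 250 bases before and 50 after each gene's start) held 25 of the 32 members. The letters CCAAT, the box of NF-Y, stood on either strand in 15 of 17 sterol members (88.2%) and 4 of 8 fatty acid members, with 41.1% of 27025 genes in the table as background. The letters GGGCGG, the box of Sp1, stood in 16 of 17 sterol members (94.1%) and 4 of 8 fatty acid members, with a background of 38.2%. For both boxes the fatty acid members lay nearer to the background. A gene was counted when any of its listed promoters held the letters, and the background takes in genes whether expressed or not. A classical sterol response element, TCACNCCAC, was matched in 1 of 17 sterol members, Hmgcs1, in 0 of 8 fatty acid members and in 1.44% of all genes. No motif contained another, and a match describes letters in a window, not a bound site. Shown are the box nearest upstream of the start in 4 members that the results turn on and the element of Hmgcs1, each 5′ to 3′ along the gene with the motif in capitals (ATTGG is CCAAT read on the other strand). They lie at chr5:28071184-28071212 (Insig1, plus strand), chr8:122443433-122443461 (Mvd, minus strand), chr15:82147122-82147150 (Srebf2, plus strand), chr11:120824590-120824618 (Fasn, minus strand) and chr13:119690206-119690230 (Hmgcs1, plus strand).
Insig1: cgccctcctcccATTGGctccggcggcct
Mvd: ccggccagcgggCCAATcatatggcagcg
Srebf2: cttcgcgcgccgATTGGctaatgcaagcc
Fasn: cctcggtgtccaATTGGtttcgatgtgga
Hmgcs1: tcaccgtcTCACCCCACttcccagg

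The knockdown was first compared with the control at each stage. In EBs of day 6, 24 of 29 members stood lower in the shSmyd5 library, as did 6293 of all 9461 genes, while Insig1, a brake on SREBP, and Lpin1, a phosphatase that makes diacylglycerol, stood higher from day 6 to day 14. In EBs of 24 h the members lay the other way, with 26 of 28 higher in the shSmyd5 library, as were 5052 of all 8354 genes. Relative to the median of all genes, 21 of 29 members stood lower at day 6 and 22 of 28 higher at 24 h. Folds are shSmyd5 over shLuc on the log2(RPKM + 0.1) scale, which understates the change of low genes. With 1 library per condition there was no test within a stage, and the 95% intervals are exact binomial intervals of the read counts, which cover counting error only and compare those libraries, not the conditions. A member was called when it differed at least 2-fold and reached an RPKM of 3 with either hairpin, and the number of members that reached this RPKM is the denominator. No strand is known for the reads, and within bulk EBs fewer cells of a type and less RNA per cell cannot be told apart.

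At day 6, 11 of 29 members were called lower (37.9%), where 19.4% of all 9461 genes were, and 1 was called higher, where 8.18% of all genes were. The lower members were the sterol genes Pmvk, Mvd, Fdps, Fdft1, Cyp51, Dhcr7 and Srebf2 and the fatty acid genes Fasn, Acaca, Acly and Fads2, and the higher one was Insig1. The median log2 fold was -0.79 over the 18 sterol members and -0.87 over the 11 fatty acid members, and over all genes it was -0.35. Relative to that shift of all genes, 5 members were lower (Mvd, Pmvk, Acly, Fasn and Fads2), where 9.13% of all genes were, and 2 were higher (Insig1 and Lpin1), where 13.8% of all genes were.

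In ES cells, 3 of 30 members were called lower (Mvd, Srebf1 and Fasn), where 11.3% of all genes were, and 0 were called higher, where 4.52% were. At 24 h, 4 of 28 members were called higher (Fdps, Lss, Scap and Fads2), where 13.0% of all genes were, and 0 lower, where 4.26% were. The median log2 fold at 24 h was 0.49 over the sterol members and 0.73 over the fatty acid members, and over all genes it was 0.17. In both stages the share of members called was near that of all genes. Folds followed base composition in the same libraries: across all genes, which do not count as repeats of one another, the folds ranked with the GC content of the transcripts at a Spearman correlation of -0.684 in ES cells and 0.576 at 24 h. It was -0.024 at day 6, -0.386 at day 10 and 0.324 at day 14. The 3 members lower in ES cells are rich in GC, at 59.3% for Mvd, 58.4% for Srebf1 and 57.4% for Fasn, while Insig1 has 47.8% and Lpin1 50.1%. After the part of the folds that follows GC content and length was taken out with a spline, 0 members were called lower in ES cells, where 2.43% of all genes were, and 2 were called higher at 24 h (Fdps and Lss), where 4.51% were. At day 6 the same step left 5 members lower (Mvd, Pmvk, Fdps, Acly and Fads2), where 9.74% of all genes were, and 2 higher (Insig1 and Lpin1), where 11.2% were.

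At day 10, 2 of 31 members were called higher (Insig1 and Lpin1), where 3.15% of all genes were, and 2 lower (Mvk and Fasn), where 6.51% were. At day 14, 2 of 28 members were called higher, again Insig1 and Lpin1, where 3.17% of all genes were, and 2 lower (Mvd and Idi1), where 4.07% were. Below 0 lay 26 of 31 members and 5712 of 10576 genes at day 10, and 20 of 28 members and 5112 of 10476 genes at day 14. The median log2 fold was -0.31 for sterol and -0.38 for fatty acid members at day 10, with -0.05 over all genes, and -0.36 and -0.20 for these lists at day 14, with 0.01 over all genes. Of the 26 members at an RPKM of at least 3 in every stage, 2 (Insig1 and Insig2) were higher in the shSmyd5 library at all 5 stages, as were 5.69% of all genes, and 0 were lower at all 5, as were 4.53%. For Insig2 this held for its main transcript alone.

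**Figure D1:**
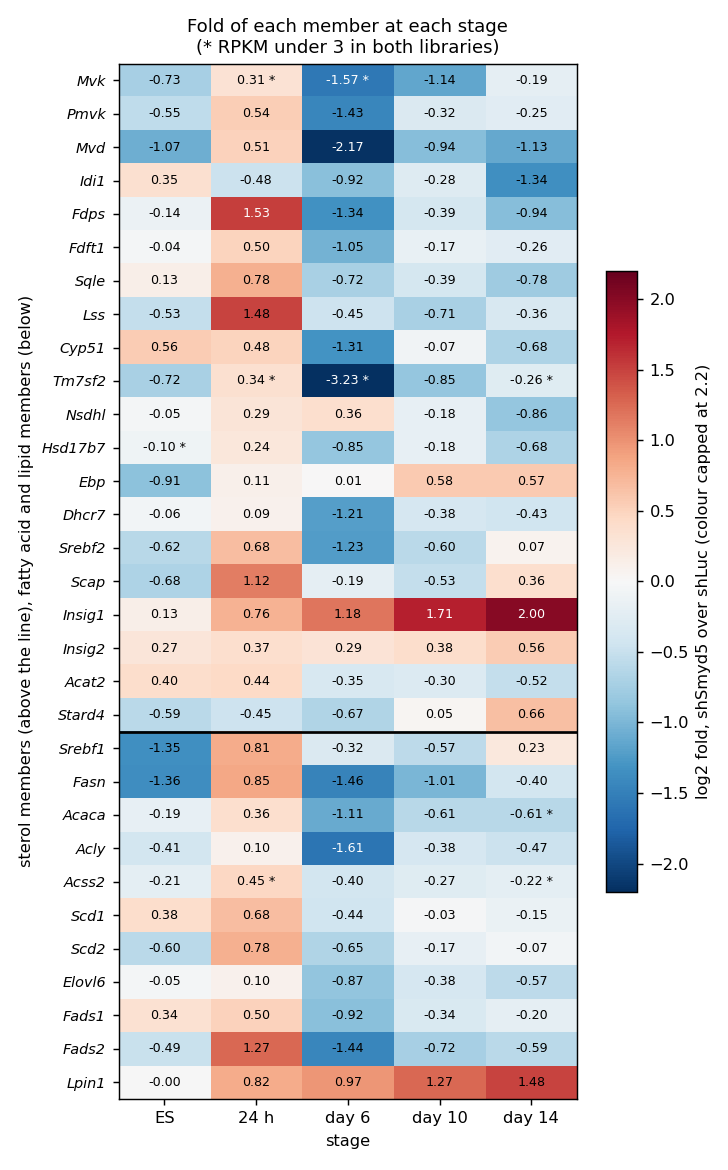
Heat map of the log2 fold of each of 31 members (rows, sterol members above the line and fatty acid and lipid members below) at each stage (columns), shSmyd5 over shLuc, 1 library per condition. Red is higher and blue lower in shSmyd5, and a star marks members under an RPKM of 3 in both libraries: Insig1 and Lpin1 are red from 24 h to day 14 while most of the day 6 column is blue.

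**Figure D2:**
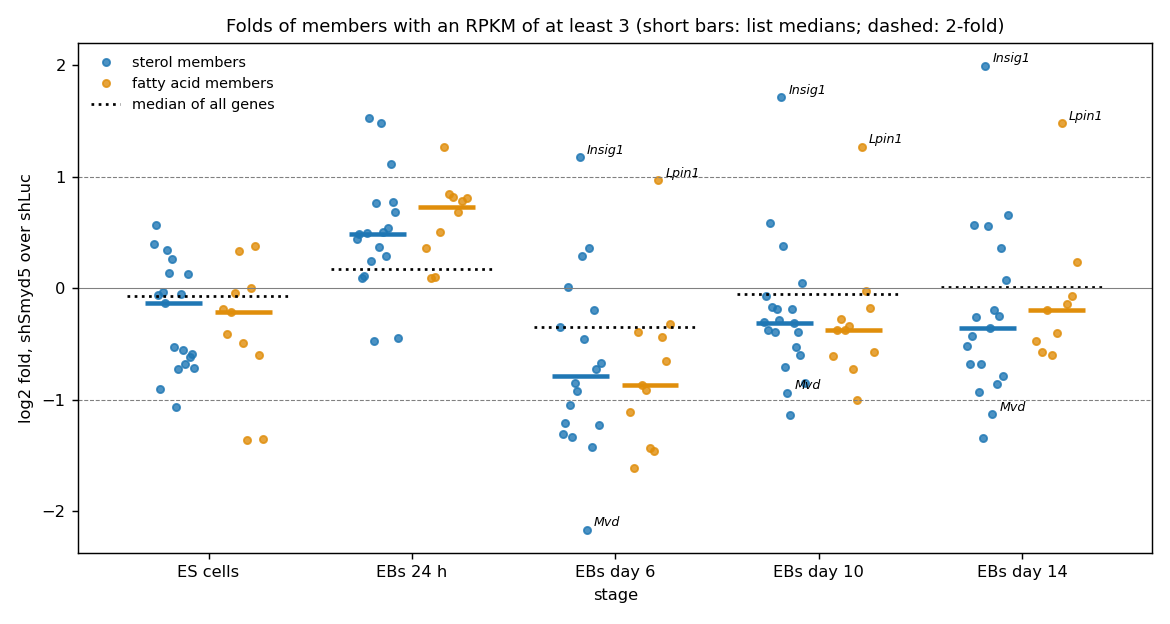
Log2 folds, shSmyd5 over shLuc (vertical axis), of members with an RPKM of at least 3 at each stage (horizontal axis). Points are genes, short bars the medians of the sterol and fatty acid members, dotted lines the medians of all genes and dashed lines a fold of 2; at day 14 Insig1 stands at 2.00 and Lpin1 at 1.48, apart from the other members.

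Among the regulators, Insig1 differed most. Insig1 (chromosome 5 from 28397952 to 28405201; gene coordinates are those of mm9) encodes the protein of the endoplasmic reticulum that retains SCAP and that SREBP itself induces. In shSmyd5 cells it had 29.4 RPKM in ES cells, 22.6 at 24 h, 65.4 at day 6, 127 at day 10 and finally 176 at day 14, against 26.8, 13.3, 28.9, 38.7 and 44.1 RPKM in shLuc cells. The 3 late shSmyd5 libraries lay above every shLuc library. The log2 fold was 0.13 in ES cells (-0.02 to 0.29), 0.76 at 24 h (0.65 to 0.89), 1.18 at day 6 (1.13 to 1.23), 1.71 at day 10 (1.65 to 1.78) and 2.00 at day 14 (1.95 to 2.04), the last from 18251 and 4535 reads. With the GC and length trend removed, these folds were 0.03, 0.70, 1.41, 1.67 and 2.03. The gap between the libraries was widest at day 14 with and without that step, and without it the difference was 3.99-fold.

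Insig2, the partner of Insig1 with the same retaining role (chromosome 1 from 123200930 to 123229166), differed less. It had 8.24, 11.7, 15.4, 15.4 and 22.8 RPKM from ES cells to day 14 in shSmyd5 cells, against 6.84, 9.003, 12.5, 11.8 and 15.5 RPKM in shLuc cells. Its log2 fold lay between 0.27 and 0.56, with the interval reaching below 0 in ES cells (-0.04 to 0.59). Its second listed transcript lay on the other side in ES cells and at day 6, at log2 folds of -0.37 and -0.61, where the main transcript had 0.27 and 0.29.

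Srebf2, which encodes the SREBP that mainly drives sterol genes (chromosome 15 from 81977696 to 82035806), stood lower in shSmyd5 libraries of ES cells, day 6 and day 10. Its RPKM in shSmyd5 cells was 37.7 in ES cells, 11.4 at 24 h, 11.7 at day 6, 46.7 at day 10 and finally 22.1 at day 14, against 57.9, 7.08, 27.6, 70.9 and 21.0 in shLuc cells. The log2 fold was -1.23 at day 6 (-1.29 to -1.18) and 0.07 at day 14 (0.01 to 0.14). With the GC and length trend removed, its fold at day 6 was -0.65 and in ES cells 0.21, so that its direction in ES cells turned.

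Scap, the escort and sterol sensor of SREBP (chromosome 9 from 110235792 to 110287450), had 6.03, 3.94, 3.20, 6.51 and 6.96 RPKM from ES cells to day 14 in shSmyd5 cells, against 9.70, 1.76, 3.67, 9.44 and 5.39 RPKM in shLuc cells. It was called at 24 h, at a log2 fold of 1.12 (0.90 to 1.43), which was 0.33 with the GC and length trend removed. Srebf1, which encodes the SREBP that mainly drives fatty acid genes (chromosome 11 from 60012591 to 60036083), had 8.92, 3.47, 4.84, 11.8 and 9.89 RPKM in shSmyd5 cells, against 22.9, 1.94, 6.06, 17.6 and 8.41 RPKM in shLuc cells. It was called in ES cells, at -1.35 (-1.50 to -1.22), which was -0.46 with the trend removed. Neither gene was apart from its control by 2-fold at day 6 or later. Exons of Scap overlap those of 5830462I19Rik over 327 bases and exons of Srebf1 those of Rai1 over 109 bases, and reads of overlapping genes cannot be told apart.

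**Figure D3:**
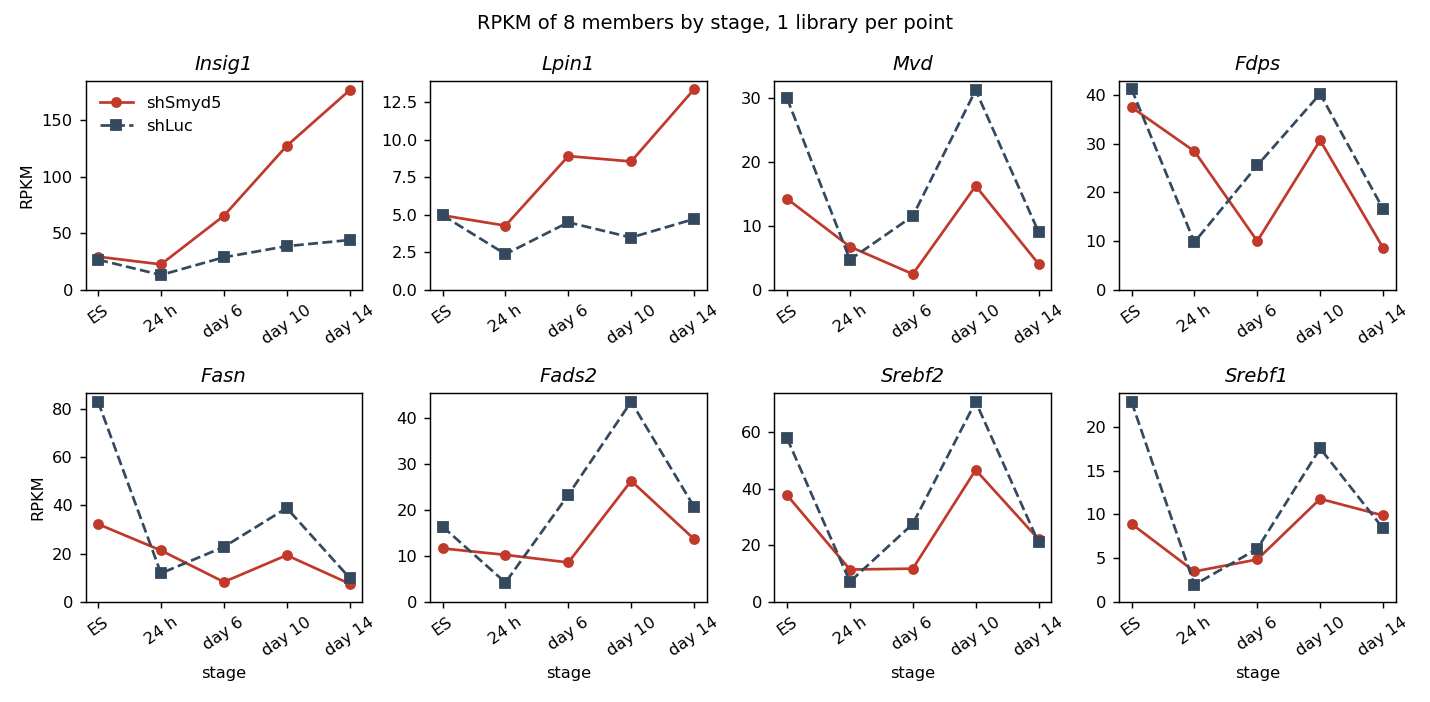
RPKM (vertical axis, from 0) of 8 members at each stage (horizontal axis), red circles for shSmyd5 and dark squares for shLuc, 1 library per point. Insig1 reaches 176 RPKM in shSmyd5 and 44.1 RPKM in shLuc EBs of day 14, while Mvd, Fdps, Fasn, Fads2 and Srebf2 are lower in the shSmyd5 library at day 6 and day 10.

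In the mevalonate pathway the decarboxylase Mvd (chromosome 8 from 124957496 to 124967322) differed most. Its RPKM in shSmyd5 cells was 14.3 in ES cells, 6.78 at 24 h, 2.499 at day 6, 16.3 at day 10 and finally 4.10 at day 14, against 29.98, 4.75, 11.6, 31.2 and 9.09 in shLuc cells. The shSmyd5 library was the lower one at 4 of 5 stages. The log2 fold was -2.17 at day 6 (-2.40 to -2.03), -0.94 at day 10 (-1.09 to -0.79) and -1.13 at day 14 (-1.35 to -0.95), and with the GC and length trend removed it was -1.86, -0.49 and -1.35.

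Fdps, the synthase of farnesyl diphosphate (chromosome 3 from 88897514 to 88905881), lay on different sides at different stages. It had 37.5, 28.4, 10.0, 30.7 and 8.66 RPKM in shSmyd5 cells, against 41.2, 9.80, 25.5, 40.2 and 16.7 RPKM in shLuc cells. At 24 h it was higher in the shSmyd5 library, at a log2 fold of 1.53 (1.35 to 1.72), and at day 6 it was lower, at -1.34 (-1.46 to -1.24). With the trend removed these were 1.09 and -1.25.

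The other enzymes up to squalene showed parts of the same pattern. The kinases Mvk and Pmvk, which phosphorylate mevalonate, had log2 folds of -1.57 and -1.43 at day 6, where Mvk was under an RPKM of 3 in both libraries, and Mvk was called lower at day 10 (-1.14). The isomerase Idi1 was called lower at day 14, with 5.17 RPKM in the shSmyd5 and 13.3 RPKM in the shLuc library (-1.34, -1.50 to -1.22). Fdft1, the squalene synthase, stood at -1.05 at day 6. Acat2, the thiolase that opens the pathway, lay between -0.52 and 0.44 at all stages and was not called. Exons of Fdft1 overlap those of Ctsb over 769 bases, so its reads may include some of that gene.

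Past squalene, 3 enzymes were called, each at 1 stage. Tm7sf2, a sterol reductase (chromosome 19 from 6062821 to 6068373), had 4.23, 0.921, 0.0735, 4.15 and 1.45 RPKM in shSmyd5 cells, against 7.02, 0.704, 1.53, 7.59 and 1.76 RPKM in shLuc cells. At day 6 it had 7 reads in the shSmyd5 and 146 in the shLuc library, and both were under an RPKM of 3. The cyclase Lss was called higher at 24 h (1.48), and the demethylase Cyp51 (-1.31) and the last reductase of the pathway, Dhcr7 (-1.21), lower at day 6. The epoxidase Sqle, the dehydrogenase Nsdhl, the reductase Hsd17b7, the isomerase Ebp and the cholesterol carrier Stard4 were called at no stage. Ebp and Stard4 lay above 0 at day 14, at 0.57 and 0.66, where Sqle, Nsdhl and Hsd17b7 lay between -0.86 and -0.68. Exons of Tm7sf2 overlap those of 1110014N23Rik over 532 bases.

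In the fatty acid branch, Fasn, the fatty acid synthase (chromosome 11 from 120667254 to 120685492), had 32.2 RPKM in ES cells, 21.3 at 24 h, 8.19 at day 6, 19.3 at day 10 and finally 7.46 at day 14 with shSmyd5, against 83.0, 11.8, 22.7, 38.9 and 9.90 with shLuc. It was called lower in ES cells (-1.36, -1.41 to -1.32), at day 6 (-1.46, -1.52 to -1.43) and at day 10 (-1.01, -1.07 to -0.95). With the GC and length trend removed, it was at -0.58, -0.80 and -0.48 there, short of 2-fold. Fads2, a desaturase of polyunsaturated fatty acids (chromosome 19 from 10138654 to 10175993), had 11.6, 10.2, 8.56, 26.4 and 13.7 RPKM with shSmyd5, against 16.4, 4.18, 23.3, 43.6 and 20.7 RPKM with shLuc. Like Fdps it stood above the control at 24 h (1.27, 1.01 to 1.58) and below it at day 6 (-1.44, -1.56 to -1.33). With the trend removed these were 0.57, short of 2-fold, and -1.27.

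Of the enzymes that supply Fasn, Acly and Acaca were called lower at day 6. With the GC and length trend removed, their log2 folds there were -1.13 for Acly and -0.62 for Acaca, the latter short of 2-fold. Acly, which makes cytosolic acetyl-CoA from citrate, had 22.5 RPKM in the shSmyd5 and 69.2 RPKM in the shLuc library (-1.61), and the carboxylase Acaca had 2.13 RPKM in the shSmyd5 and 4.73 RPKM in the shLuc library (-1.11). The desaturases Scd1 and Scd2, the elongase Elovl6, the desaturase Fads1 and the acetyl-CoA synthetase Acss2 were called at no stage and lay between -0.92 and -0.40 at day 6. Scd1 and Scd2 are close paralogs, and how reads were split between them is uncertain. Scd2 was the highest member by RPKM, with 201 RPKM in the shSmyd5 and 226 RPKM in the shLuc library of day 10.

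Lpin1 (chromosome 12 from 16542475 to 16596576), a phosphatidate phosphatase of triglyceride and phospholipid synthesis, stood higher in late EBs with shSmyd5, as Insig1 did. It had 4.97 RPKM in ES cells, 4.29 at 24 h, 8.91 at day 6, 8.56 at day 10 and finally 13.4 at day 14 with shSmyd5, against 4.98, 2.39, 4.51, 3.49 and 4.73 RPKM with shLuc. The 3 late shSmyd5 libraries lay above all 5 shLuc libraries. Its log2 fold was 0.00 in ES cells (-0.25 to 0.25), 0.97 at day 6 (0.90 to 1.07), 1.27 at day 10 (1.13 to 1.45) and 1.48 at day 14 (1.40 to 1.60). With the GC and length trend removed, the late folds were 1.44, 1.37 and 1.44.

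Markers of cell types also differed between these libraries. The summed RPKM of 13 markers of primitive and visceral endoderm was 1184 with shSmyd5 and 218 with shLuc at day 6. It was 2971 with shSmyd5 and 2627 with shLuc at day 10, and 5772 with shSmyd5 and 5594 with shLuc at day 14. From 10 to 13 of these markers were at an RPKM of at least 3 in each late library, and none was at 0 reads. Single markers were further apart than the sums of the last stages: 10 of 12 kept markers were at least 2-fold higher with shSmyd5 at day 6, 4 of 13 at day 10 (Gata4, Gata6, Sox17 and Dab2) and 2 of 13 at day 14 (Gata4 and Sox17), and Trf was lower at day 10. Gata4, a transcription factor of primitive endoderm, had 102 RPKM with shSmyd5 and 35.8 RPKM with shLuc at day 10, and 124 RPKM with shSmyd5 and 41.8 RPKM with shLuc at day 14. Afp, a secreted protein of visceral endoderm, had 626 RPKM with shSmyd5 and 922 RPKM with shLuc at day 10. The sum of the 5 ES cell markers was 167 with shSmyd5 and 497 with shLuc at day 6, and that of 6 neural markers was 6.62 with shSmyd5 and 101 with shLuc at day 10, and 7.13 with shSmyd5 and 109 with shLuc at day 14. That of 6 fibroblast markers was 1586 with shSmyd5 and 2763 with shLuc at day 14. The part of these markers in the members' folds was not tested.

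Whether the knockdown had an effect shared by the stages was tested on read counts with the edgeR quasi-likelihood test, with stage as a block, so that the 5 pairs of libraries served as the repeats. Insig1 and Lpin1 had the lowest p-values of the 31 members. At an adjusted p of 0.05 over 12277 genes, edgeR called 0 members and 0.0% of all genes in either direction. At an unadjusted p under 0.05 there were 3 members higher and 3 lower, of 697 and 728 genes in all. The log2 fold of Insig1 in the edgeR quasi-likelihood test was 1.23 ± 0.28 (SE, adjusted p = 0.166). It was higher in shSmyd5 at 5 of 5 stages. For Lpin1 the edgeR fold was 1.00 ± 0.25 (adjusted p = 0.192), and it was higher at 4 of 5 stages. Mvd was at -0.92 ± 0.30 in edgeR (adjusted p = 0.281), lower at 4 of 5 stages. By this test Smyd5, the knocked-down gene, also missed the threshold (-2.63 ± 0.51, adjusted p = 0.107).

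Both Insig1 and Lpin1 passed with 3 other settings. Neither passed with limma, without the stage block or with each stage left out in turn. DESeq2 called these 2 members higher, where 1.43% of all genes were, and 0 lower, where 1.28% were. edgeR without the filter on low genes called the same 2 higher, where 0.565% of 19819 genes were, and 0 lower, where 0.257% were. So did edgeR on the 6 libraries of day 6, day 10 and day 14 alone, a setting chosen after seeing the data, where 0.448% of all genes were higher and 0.195% lower. In that fit Insig1 was at 1.76 (adjusted p = 0.0311) and Lpin1 at 1.39 (adjusted p = 0.0386). Over all settings the adjusted p ranged from 0.00264 to 1.0 for Insig1 and from 0.0244 to 1.0 for Lpin1, and limma called 0 members.

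The knockdown effect of late EBs (day 6, day 10 and day 14) was compared with that of ES cells and EBs of 24 h by an interaction term. Insig1 had the largest positive estimate of the members, 1.36 ± 0.38 on the log2 scale, and Fdps the largest negative one, -1.41 ± 0.52, but neither passed in edgeR (adjusted p = 0.667 and 0.834). In all, edgeR called 0 members and 0.0% of genes, with 2 members higher and 3 lower at an unadjusted p under 0.05, of 383 and 261 genes. DESeq2 and limma also called 0 members.

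More members passed when stages were compared. Each EB stage was compared with ES cells in the same edgeR fit, with 1 shSmyd5 and 1 shLuc library per stage as repeats, and the 4 comparisons share the ES cell libraries. From the deposited counts, enzymes such as Mvk, Pmvk, Mvd and Fasn fell by day 6 and by day 14 but not by the threshold at day 10. Insig1, Insig2 and Stard4 rose by day 14. With an offset for GC content and length, given below, Pmvk and Mvd missed the threshold at day 6 and Fasn passed as lower at day 10. Insig1, Insig2 and Stard4 then missed it at day 14. In shLuc cells, 23 of 31 members had their lowest RPKM at 24 h and 16 their highest at day 10, while in shSmyd5 cells 13 were lowest at day 6 and 12 highest at day 10. The same count was not made over all genes, so whether this is particular to the members was not tested.

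At 24 h, 6 of 31 members passed as lower (Mvk, Pmvk, Dhcr7, Srebf2, Stard4 and Srebf1), where 14.2% of all genes did, and 1 as higher (Elovl6), where 15.8% did. At day 6, 11 members passed as lower, where 18.4% of all genes did, and 1 as higher (Insig2), where 23.6% did. The 11 were Mvk, Pmvk, Mvd, Tm7sf2, Ebp, Dhcr7, Srebf2, Srebf1, Fasn, Acly and Scd2. At day 10, 2 members passed as higher (Hsd17b7 and Stard4), where 20.0% of all genes did, and 0 as lower, where 15.6% did. There, 1 member was lower and 6 higher at an unadjusted p under 0.05, and DESeq2 called 1 member lower and limma 0. The shares of all genes for these last counts are not given here, so the counts are no result about the members.

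At day 14, 11 members passed as lower (Mvk, Pmvk, Mvd, Fdps, Lss, Dhcr7, Srebf2, Fasn, Acaca, Acly and Elovl6), where 20.6% of all genes did, and 3 as higher (Insig1, Insig2 and Stard4), where 25.6% did. Fasn had 7.46 RPKM in shSmyd5 and 9.90 RPKM in shLuc EBs of day 14, against 32.2 RPKM in shSmyd5 and 83.0 RPKM in shLuc ES cells. Its log2 fold, EBs of day 14 over ES cells, was -2.73 ± 0.46 (SE, edgeR adjusted p = 0.000996). Mvk reached its lowest estimate at day 6, -2.52 ± 0.52 (edgeR adjusted p = 0.0043), with 0.927 RPKM in shSmyd5 and 2.94 RPKM in shLuc EBs, against 8.83 RPKM in shSmyd5 and 14.7 RPKM in shLuc ES cells. Stard4, which moves cholesterol between membranes, had 30.3 RPKM in shSmyd5 and 29.2 RPKM in shLuc EBs of day 10, against 6.10 RPKM in shSmyd5 and 9.24 RPKM in shLuc ES cells (1.77 ± 0.38, edgeR adjusted p = 0.00497). In each of these comparisons both EB libraries lay on the same side of both ES cell libraries. Insig1 rose by 1.52 ± 0.44 at day 14 (edgeR adjusted p = 0.0171), with an RPKM of 176 in shSmyd5 and 44.1 in shLuc EBs and of 29.4 in shSmyd5 and 26.8 in shLuc ES cells.

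The calls between stages moved with base composition too. With an offset for GC content and transcript length, edgeR called 0 members at 24 h, where 8.02% of 11695 genes passed as higher and 5.27% as lower. It called 7 members lower at day 6, where 23.2% of genes were, and 0 higher, where 15.3% were. The 7 were Mvk, Ebp, Fasn, Acaca, Acly, Scd2 and Elovl6. At day 10 it called 2 members higher (Stard4 and Fads2), where 16.3% of genes were, and 4 lower (Fasn, Acaca, Acly and Elovl6), where 31.6% were. At day 14 it called 19 members lower, where 36.3% of genes were, and 0 higher, where 18.9% were. Fasn, Acaca and Acly stayed lower at day 14 with the offset, at -2.92, -2.55 and -1.80 on the log2 scale (edgeR adjusted p = 0.000271, 0.000392 and 0.00112), while the estimate for Insig1 was 0.86 and missed the threshold.

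**Figure D4:**
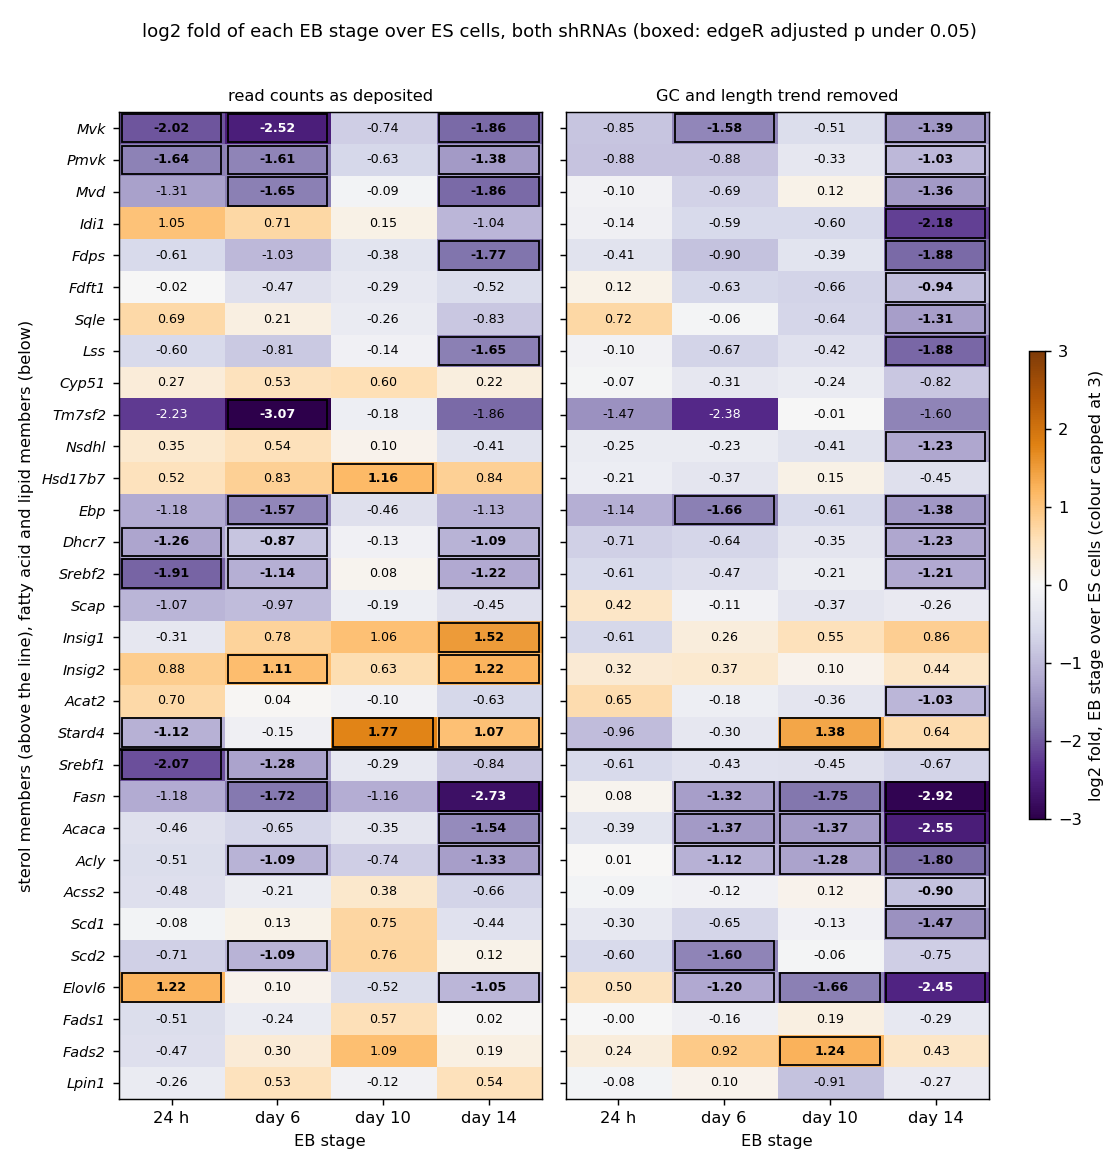
Heat maps of the log2 fold of each EB stage over ES cells (columns) for 31 members (rows) in the edgeR fit over both shRNAs, from the deposited read counts (left) and with GC content and length as an offset (right). Boxes mark an adjusted p under 0.05: 11 members are boxed as lower at day 14 on the left and 19 on the right.

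Other genes of lipid handling were counted from lists of 31 sterol, 27 fatty acid and 20 fatty acid oxidation genes outside the members. At day 6, 4 of 25 sterol genes were called lower and 2 higher in the shSmyd5 library, 3 of 17 fatty acid genes were lower and 4 higher, and 1 of 14 oxidation genes was lower and 1 higher, with 19.4% of all genes lower and 8.18% higher. At day 14, 1 of 26 of these sterol genes was lower, and 0 of 20 fatty acid and 0 of 17 oxidation genes were called. Genes called at 2 stages included the fatty acid gene Me1, higher at day 6 (log2 fold 2.07) and day 10 (1.50). They also included the sterol gene Sc4mol, lower at day 6 (-1.01) and day 14 (-1.46), and the oxidation gene Acads, lower in ES cells (-1.84) and at day 10 (-1.06). The median log2 fold at day 14 was 0.08, 0.10 and 0.32 for these lists, where the sterol and fatty acid members had -0.36 and -0.20 and all genes 0.01. In the shared edgeR test 0 genes of the lists passed, with 3 sterol, 2 fatty acid and 1 oxidation genes higher and 1 sterol gene lower at an unadjusted p under 0.05.

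From the deposited counts, more genes of these lists rose than fell by day 14, while 3 members rose and 11 fell. Over all genes 25.6% rose and 20.6% fell. With the GC and length offset the balance over all genes turned, with 18.9% higher and 36.3% lower. The lists and the genes named below are given without that offset, so their contrast with the members rests on the uncorrected counts. At day 14, 13 of 27 sterol genes outside the members rose and 3 fell against ES cells in the edgeR test, as did 8 and 2 of 24 fatty acid genes and 5 and 3 of 18 oxidation genes. Soat1, which esterifies cholesterol for storage, had 58.0 RPKM in shSmyd5 and 39.6 RPKM in shLuc EBs of day 14, against 6.07 RPKM in shSmyd5 and 5.80 RPKM in shLuc ES cells (edgeR log2 fold 2.90 ± 0.31, adjusted p = 9.2e-05). Its relative Soat2 and Npc1, which exports cholesterol from lysosomes, also rose by day 14, by 3.56 ± 0.64 (edgeR adjusted p = 0.00147) and 1.83 ± 0.31 (adjusted p = 0.000929). The elongase Elovl1 rose by 1.67 ± 0.42 at day 14 (edgeR adjusted p = 0.00887), and Ptplb, a dehydratase of fatty acid elongation, by 2.49 ± 0.39 at 24 h (adjusted p = 0.00428). Their estimates for the knockdown lay between 0.53 and 1.05, with adjusted p-values in edgeR from 0.305 to 0.398.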

How the data were processed

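RNA-Seq of polyadenylated RNA gave 10 libraries, 1 per shRNA and stage. The authors mapped reads to mm9 (Bowtie2 and CASAVA, from the submitters' processing notes; versions not given in the sources used here). They deposited a whole read count for each of 29257 RefSeq transcripts. The deposited RPKM values are these counts scaled to transcript length and library size; they lay within 1% of that formula in 100% of values over 200 reads. For each of 22878 gene symbols the transcript with the highest mean count was used. Coordinates and GC content came from GENCODE M1 (mm9). The depth sets the precision given by the exact binomial 95% intervals.

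Folds were log2(RPKM + 0.1), shSmyd5 less shLuc. The 12277 genes whose RPKM averaged 1 or more entered the edgeR quasi-likelihood tests (Benjamini-Hochberg adjusted p under 0.05, TMM), with limma and DESeq2 as alternatives; p-values measure the spread between stages or between the paired libraries, since no condition was repeated. GC content and length were modelled with splines, of 4 degrees of freedom in the edgeR offset and cubic with 4 knots for the folds within a stage. The fits were run on simulated data with less spread between libraries than these data. The simulated knockdown effect was the same at every stage, so that run does not give the power of the tests here. Alternatives changed the pseudocount (1, 0.01), the RPKM minimum, the fold, the scaling, the block and the stages included. All members are named; all 10 values are given for the regulators, for members called in 2 or more stages and for the 4 with the widest range in shLuc. Other genes named were those with the lowest p in the knockdown test that passed a stage test. Me1, Sc4mol and Acads were named for their calls at 2 stages. Members and lists were chosen with earlier results of these data known. Fits ran in R 4.3.3 with DESeq2 1.42.0, edgeR 4.0.16 and limma 3.58.1. Everything else ran in Python 3.11.15 (pandas 2.3.3, numpy 2.4.6, matplotlib 3.10.9, scipy 1.17.1).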

Additional observations from a re-analysis of the deposited data

Results flagged for a closer look

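Fdps and Fads2 were called in opposite directions at different stages. Fdps had a log2 fold, shSmyd5 over shLuc, of 1.53 at 24 h and -1.34 at day 6. For Fads2 the folds were 1.27 at 24 h and -1.44 at day 6. With the trend on GC content and length removed they were 1.09 and -1.25 for Fdps and 0.57 and -1.27 for Fads2, so that the 24 h call of Fads2 was lost. The difference between 24 h and day 6 was not tested, since each stage had 1 library per shRNA.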

How the results depend on the processing

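No called value changed sign under the alternatives run. Of the counts of members, 144 stayed within 1.5 times the reported count and 40 moved. For members at least 2-fold lower in ES cells, a fold of 1.5 gave 10 and GC removal 0 (3 reported). For those higher at 24 h, a fold of 1.5 gave 12 and GC removal 2 (4 reported). At day 6, a fold of 1.5 gave 2 higher and 18 lower, median centring 2 and 5, TMM scaling 2 and 6, and GC removal 2 and 5 (1 and 11 reported). At day 10, an RPKM of at least 10 left 1 higher of 2, and 2 lower became 1 with a pseudocount of 1, with median centring and with TMM scaling, 0 with GC removal and 8 at a fold of 1.5. At day 14, 2 lower became 1 with a pseudocount of 1 or an RPKM of at least 10, and 8 at a fold of 1.5. A fold of 1.5 also calls more of all genes, whose share is not given here. The larger counts at that fold are therefore no result about the members. Shares of all genes are also not given for TMM scaling, the other pseudocount, the RPKM of at least 10 and the alternatives at day 10. Those counts show only how the calls of members moved. In the shared knockdown test, 2 members were higher with DESeq2, without the filter and in day 6, day 10 and day 14 alone (0 reported). Leaving out each stage in turn kept Insig1 between 1.01 and 1.48 (adjusted p 0.0666 to 0.457, edgeR) and Lpin1 between 0.85 and 1.21 (0.0767 to 0.565), with 0 members called.

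Against ES cells, DESeq2 gave 3, RLE size factors 2 and limma and the GC and length offset 0 higher members at 24 h (1 reported), and limma gave 12 and the offset 0 lower (6 reported). At day 6 the offset gave 0 higher and 7 lower (1 and 11 reported). At day 10, DESeq2 gave 4, limma 5 and no filter 1 higher (2 reported), and DESeq2 and no filter 1 and the offset 4 lower (0 reported). At day 14 the offset gave 0 higher and 19 lower (3 and 11 reported). The cause was not tested. Against ES cells, the shares of all genes with DESeq2, limma, RLE size factors and no filter are not given here. The counts under those settings show only how the calls of members moved. The knockdown test paired the 2 libraries of a stage through the stage block, and without that block 0 members passed. The shallowest library, shLuc ES cells with 3895537 reads in genes, sets the widest intervals.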
